A study of Mus musculus with 12 samples.

Results

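Cdx1, Cdx2 and Cdx4 are the 3 caudal-type homeobox genes of the mouse, and they were taken by symbol from a table of 35856 gene rows, where each symbol had 1 row. All 3 members passed the filter on low values (at least 1 TPM, a read count scaled by transcript length and library size, in at least 2 libraries), as did 15661 genes in all. Polyadenylated RNA was measured by stranded sequencing in cardiac precursors, an early stage on the way from mesoderm to heart muscle, which had been differentiated from C57BL/6 embryonic stem cells (ESCs). The study compared cells with and without 50 µM indole-3-acetic acid, an auxin analog, in 3 lines, each with a different tagged subunit of Polycomb repressive complex 2 (PRC2).

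The 6 groups were untreated and auxin-treated SUZ12-AID, untreated and auxin-treated MTF2-AID, and untreated and auxin-treated AID-JARID2, with 2 libraries each. All 3 lines carried Tir1, the plant receptor through which auxin sends a protein with an auxin-inducible degron (AID) to degradation. SUZ12 is a subunit of every PRC2, whereas MTF2 and JARID2 are accessory and join different forms of it. All groups went through the same differentiation, with 48 h as embryoid bodies, 43 h of reaggregation with VEGF, Activin A and BMP4, and 32 h as a monolayer with VEGF, basic FGF and FGF10. Each subunit was tagged in 1 line, and no untagged line given auxin is among the samples, so an effect of auxin itself or of a clone cannot be told apart from loss of the subunit. The start and length of the auxin treatment are not given in the labels. The libraries of a group are called biological replicates without a word on separate cultures, so the tests measure the spread between these libraries, which may be technical.

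Caudal factors are DNA-binding homeodomain proteins. In the gastrulating embryo they are switched on in the primitive streak and the tail end by WNT, FGF and retinoic acid signals, and they activate Hox genes of the trunk and tail. Cdx2 is also required for the trophectoderm, the outer layer of the blastocyst, Cdx1 and Cdx2 are active in the gut epithelium, and Cdx4 takes part in the formation of embryonic blood. In ESCs the caudal loci are among those that PRC2 marks with methylated histone H3, a mark of silent developmental genes.

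The genes lie on different chromosomes (mm10, GENCODE vM21). Cdx2 (ENSMUSG00000029646.3) is on the minus strand of chromosome 5 at 147300805 to 147307270. Cdx4 (ENSMUSG00000031326.2) is on the plus strand of chromosome X at 103321398 to 103330592. Both have 1 annotated transcript of 3 exons, and the coding parts span 933 bases in Cdx2 and 846 in Cdx4.

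The stretches just before the starts of Cdx2 and Cdx4 are shown because a promoter sequence was at hand for these members only, and not for Cdx1. Both come from RefSeq on GRCm38.p6, where 2 of the 3 members were matched, and both are printed 5′ to 3′ on the strand of the gene, ending at the base before the gene's start. The window of Cdx2 is chr5:147307271-147307499 on the minus strand, and that of Cdx4 is chrX:103321148-103321397 on the plus strand. Capitals mark the octamer ATGCAAAT, the site of POU factors such as OCT4, and the CCAAT box, the site of NF-Y, which reads ATTGG where it lies on the other strand.
Cdx2: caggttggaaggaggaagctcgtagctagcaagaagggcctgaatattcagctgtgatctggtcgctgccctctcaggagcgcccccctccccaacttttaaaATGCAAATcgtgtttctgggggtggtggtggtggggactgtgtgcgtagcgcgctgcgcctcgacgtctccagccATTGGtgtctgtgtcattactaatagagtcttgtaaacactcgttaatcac
Cdx4: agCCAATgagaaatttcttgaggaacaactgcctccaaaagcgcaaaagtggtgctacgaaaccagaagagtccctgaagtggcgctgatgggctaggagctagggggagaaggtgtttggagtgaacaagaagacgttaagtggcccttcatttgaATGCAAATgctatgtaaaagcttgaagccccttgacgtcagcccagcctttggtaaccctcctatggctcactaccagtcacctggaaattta

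Each window held 1 octamer, which began 126 bases before the start of Cdx2 and 93 bases before the start of Cdx4. The octamer occurred on either strand in 526 of 32851 RefSeq promoters, or 1.60%. Each window also held 1 CCAAT box, on the minus strand of the Cdx2 window at 51 bases and on the plus strand of the Cdx4 window at 248 bases, and 33.8% of promoters held one. Both motifs together occurred in 252 promoters (0.767%). The palindrome TGACGTCA, the core of the cyclic AMP response element, was found in the Cdx4 window at 61 bases and in 1.55% of promoters. TTTATG, a CDX-type site, and CTTTGAT, a TCF/LEF-type site, were in neither window, and 10.8% and 3.21% of promoters held them. The motifs were searched on both strands, did not overlap each other, and were chosen after the sequences had been read. The Cdx2 window held 11 CpG dinucleotides at a GC content of 53.7%, and the Cdx4 window held 5 at 48.4%. Their ratios of observed to expected CpG were 0.67 and 0.34, and 70.7% and 46.3% of promoters had a lower ratio.

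The 12 libraries held between 10138920 and 17173072 reads, recovered from the TPM values. Cdx2 was read 697 to 4357 times in a library outside auxin-treated AID-JARID2, where it had 110 and 115 reads, so counting noise was small for it. Cdx1 rested on 9 to 58 reads a library and Cdx4 on 4 to 194, and their low values are correspondingly coarse.

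Cdx2, which sets posterior identity in the embryo and trophectoderm fate in the blastocyst, was by far the most abundant caudal transcript per length. In SUZ12-AID it measured 234 and 212 TPM without auxin and 98.8 and 73.2 TPM with it. In MTF2-AID the untreated libraries measured 427 and 439 TPM and both auxin libraries 425 TPM. In AID-JARID2 it measured 126 and 116 TPM without auxin and 9.10 and 8.19 TPM with it. Both auxin libraries thus lay below both untreated ones in every line, by a wide margin in AID-JARID2 and SUZ12-AID and by less than the gap between the untreated replicates in MTF2-AID. The group means ran from MTF2-AID untreated (433 ± 8.43 TPM, SD, n = 2 here and for every mean) over MTF2-AID with auxin (425 ± 0.0109), SUZ12-AID untreated (223 ± 15.6), AID-JARID2 untreated (121 ± 7.11) and SUZ12-AID with auxin (86.0 ± 18.1) down to AID-JARID2 with auxin (8.64 ± 0.647). No neighbours in this order overlapped, although the first pair differed by less than the SD of the untreated group.

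Cdx4, a posterior caudal gene with a role in early blood formation, was low in most groups. In SUZ12-AID it measured 3.30 and 4.95 TPM without auxin and 0.751 and 0.847 TPM with it. In MTF2-AID the order was the opposite, with 0.632 and 0.601 TPM (4 reads in each library) without auxin and 1.10 and 2.76 TPM (8 and 21 reads) with it. In AID-JARID2 it measured 22.5 and 26.3 TPM without auxin and 0.890 and 0.383 TPM with it. Untreated AID-JARID2 stood far above every other group, and the auxin libraries of this line were among the lowest. The group means ran from AID-JARID2 untreated (24.4 ± 2.69 TPM) over SUZ12-AID untreated (4.13 ± 1.17), MTF2-AID with auxin (1.93 ± 1.17), SUZ12-AID with auxin (0.799 ± 0.0675) and AID-JARID2 with auxin (0.637 ± 0.359) to MTF2-AID untreated (0.616 ± 0.0215). Among the last 3 groups AID-JARID2 with auxin overlapped both others, which did not overlap each other.

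Cdx1, the caudal gene most directly tied to WNT and retinoic acid in the streak, was low throughout. It (ENSMUSG00000024619.8) lies on the minus strand of chromosome 18 at 61018862 to 61036199, with 1 annotated transcript of 3 exons and a coding part of 804 bases. In SUZ12-AID it measured 1.70 and 1.15 TPM without auxin and 1.76 and 1.80 TPM with it. In MTF2-AID the values were 1.44 and 1.23 TPM, and 1.63 and 1.68 TPM with auxin. In AID-JARID2 they were 6.38 and 5.30 TPM without auxin and 1.22 and 0.960 TPM with it. One group therefore stood out, untreated AID-JARID2 at 5.84 ± 0.762 TPM. The others followed in a narrow band, with SUZ12-AID with auxin at 1.78 ± 0.0283, MTF2-AID with auxin at 1.65 ± 0.0352, SUZ12-AID untreated at 1.42 ± 0.387, MTF2-AID untreated at 1.34 ± 0.146 and AID-JARID2 with auxin at 1.09 ± 0.182 TPM. Untreated SUZ12-AID overlapped its neighbours on both sides of this order.

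**Figure D1:**
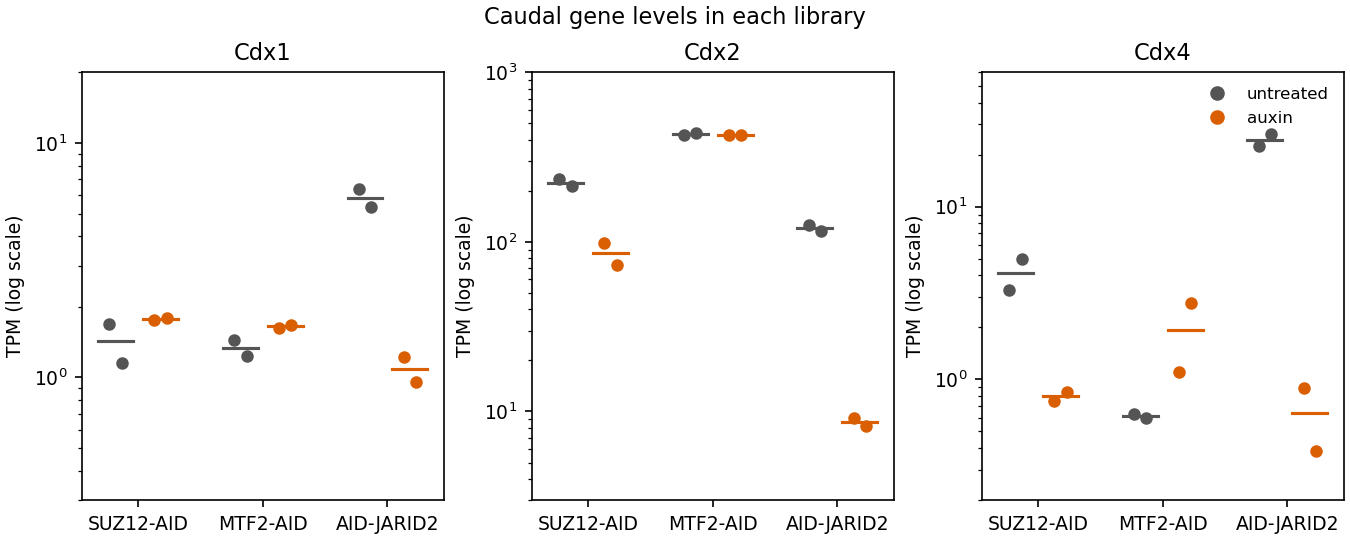
TPM of Cdx1, Cdx2 and Cdx4 (log axes that differ between panels) in each of 12 libraries, by line and treatment; points are libraries and bars are means of 2. Cdx2 fills the range from 8.19 to 439 TPM, and untreated AID-JARID2 is the highest group for Cdx1 and Cdx4 but not for Cdx2.

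With auxin in AID-JARID2, all 3 caudal genes fell. The ratio of group means, untreated over auxin, was 38.3 for Cdx4, 13.9 for Cdx2 and 5.37 for Cdx1. On the log2(TPM + 1) scale, which understates the change of low genes, Cdx4 fell by 3.97 (SE 0.276, 95% interval -4.58 to -3.35, adjusted p = 2.7e-06, limma across all genes with Benjamini-Hochberg adjustment, as for all adjusted p-values here). Cdx2 fell by 3.66 (SE 0.118, -3.92 to -3.39, adjusted p = 1.51e-08) and Cdx1 by 1.71 (SE 0.168, -2.09 to -1.33, adjusted p = 2.98e-05). Of all genes tested in this line, 17.0% were lower and 19.5% higher with auxin, against 3 and 0 of the 3 caudal genes. In the order of log2 differences Cdx4 was the 6th lowest of 15661 genes and Cdx2 the 16th. In bulk RNA, fewer cells that express a gene and less RNA per cell cannot be told apart.

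The fall in AID-JARID2 went with a change in markers of cell type. Of 13 tested cardiac precursor markers 11 fell and 0 rose, beside 17.0% and 19.5% of all genes. The sum over the 14 listed markers went from 2350 and 2283 TPM to 249 and 210 TPM, most of it Hand1. Of 8 pluripotent cell markers all rose, and their sum went from 786 and 779 TPM to 3269 and 3318 TPM. The part of these shifts in the fall of the caudal genes was not tested.

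In SUZ12-AID, Cdx2 and Cdx4 fell with auxin and Cdx1 was not called. The ratio of means was 2.6 for Cdx2 and 5.16 for Cdx4. Cdx2 fell by 1.38 (SE 0.118, 95% interval -1.64 to -1.12, adjusted p = 9.54e-05), the 53rd lowest log2 difference, and Cdx4 by 1.49 (SE 0.276, -2.11 to -0.88, adjusted p = 0.00454), the 42nd lowest. The Cdx1 difference was 0.21 (-0.17 to 0.58, adjusted p = 0.457), and it was -0.15 after quantile normalization. Lower calls made up 4.05% and higher calls 15.1% of the genes tested, against 2 and 0 of 3. The share of higher genes among calls was 78.8%, and it was 61.1% under median-of-ratios scaling (2158 higher, 1376 lower) and 53.1% under quantile normalization (1605 and 1418). The calls of both genes are sensitive to how the spread is estimated: with the libraries of this line alone the adjusted p was 0.0503 for Cdx2 and 0.0564 for Cdx4, and with a variance weight per line it was 0.0591 for Cdx4.

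Markers of cell type moved in SUZ12-AID as well, where 15.1% of all genes rose and 4.05% fell. Of 13 cardiac markers 5 rose, among them Nkx2-5 from 2.25 ± 0.740 to 25.9 ± 3.57 TPM, and only Hand1 fell, from 2421 ± 185 to 1033 ± 61.4 TPM. The cardiac sum, most of it Hand1, went from 2798 and 3072 to 1898 and 1711 TPM, and Hand1 alone lost more than the sum did. Of the pluripotent markers 7 of 8 rose, with a sum of 201 and 177 TPM before and 316 and 395 TPM after. Extraembryonic mesoderm markers, of which 3 fell and 1 rose out of 8, went from a sum of 2963 and 3390 to 1614 and 1573 TPM. Hand1 is counted in this sum as well and made up most of its fall. The part of these markers in the result was not tested.

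In MTF2-AID no caudal gene was called. Cdx2 differed by -0.03 (SE 0.118, 95% interval -0.29 to 0.24, adjusted p = 0.982), an interval that leaves out a fall of the size seen in SUZ12-AID. Cdx1 differed by 0.18 (SE 0.168, -0.19 to 0.56, adjusted p = 0.818). Cdx4 differed by 0.80 (SE 0.276, 0.18 to 1.41, unadjusted p = 0.0163, adjusted p = 0.368), with a ratio of means, auxin over untreated, of 3.13 on 4 to 21 reads. It was 1.22 without auxin replicate 1 and 0.38 without auxin replicate 2, and 1.37 and 0.29 with pseudocounts of 0.1 and 5. In this line limma called 0.0447% of genes higher and 0.0192% lower, which is 7 and 3 genes, and 665 and 823 genes had an unadjusted p under 0.05. The 0 of 3 called caudal genes is thus what the background gives. The share of higher genes among calls was 70.0%, and 75.0% (6 and 2 genes) and 52.9% (9 and 8 genes) under the same scalings as above. Marker sums hardly moved, with 1844 and 1776 against 1865 and 1852 TPM for the cardiac list and 220 and 234 against 238 and 229 TPM for the pluripotent list.

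The auxin effect on the caudal genes differed between the lines when the difference itself was tested by an interaction term. Between AID-JARID2 and MTF2-AID all 3 genes differed, by -4.76 for Cdx4 (adjusted p = 1.77e-05), -3.63 for Cdx2 (adjusted p = 4.23e-07) and -1.89 for Cdx1 (adjusted p = 0.000293), beside 24.3% of all genes. The Cdx4 value was the lowest of all 15661 genes in that comparison. Between AID-JARID2 and SUZ12-AID all 3 differed too, by -2.47 for Cdx4 (adjusted p = 0.00137), -2.28 for Cdx2 (adjusted p = 1.06e-05) and -1.92 for Cdx1 (adjusted p = 0.000345), beside 24.0% of all genes. Between MTF2-AID and SUZ12-AID 2 of 3 differed, Cdx4 by 2.29 (SE 0.390, adjusted p = 0.00561) and Cdx2 by 1.35 (SE 0.166, adjusted p = 0.00115), beside 11.1% of all genes. Cdx1 differed there by -0.02 (95% interval -0.56 to 0.51, adjusted p = 0.969). Each pair of these comparisons shares a line, so they are not independent of each other. On the log2(TPM + 1) scale a gene cannot fall by more than its untreated value. Untreated Cdx1 was at 1.43 and 1.10 in SUZ12-AID and 1.29 and 1.16 in MTF2-AID, less than its fall in AID-JARID2 (-1.71). Untreated Cdx4 was at 2.10 and 2.57 in SUZ12-AID, less than its fall in AID-JARID2 (-3.97). In MTF2-AID it was at 0.706 and 0.679, less than its falls in both other lines. The untreated levels thus fixed part of each called Cdx1 and Cdx4 difference.

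**Figure D2:**
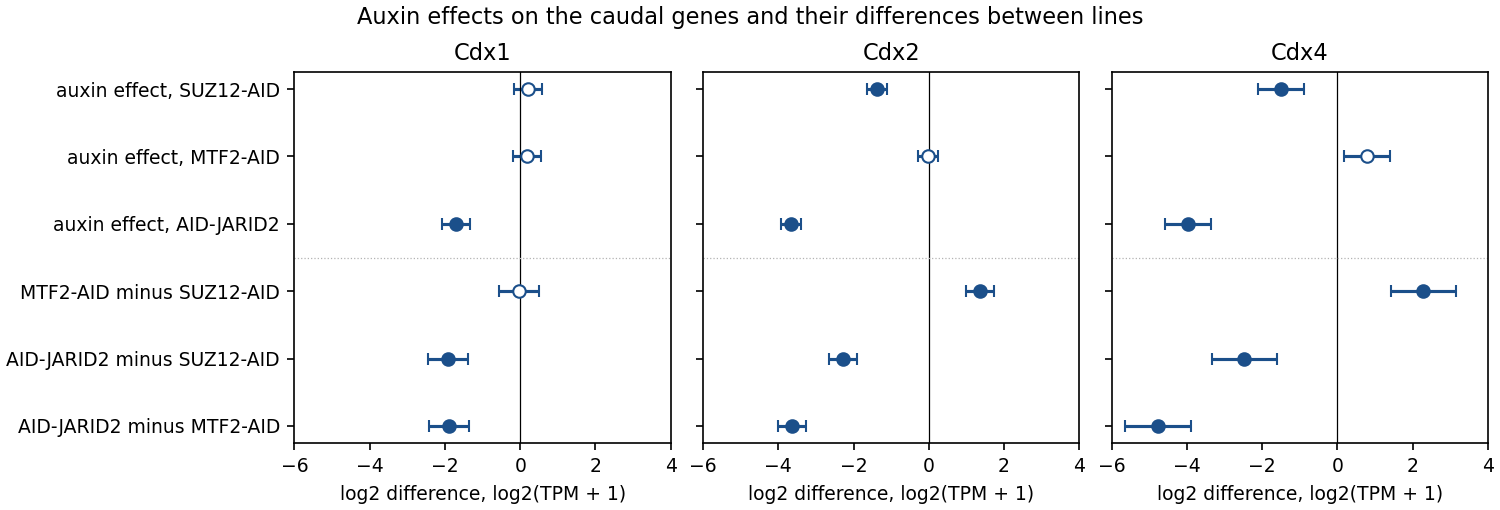
Log2 differences on the log2(TPM + 1) scale, auxin minus untreated in each line (upper rows) and between the auxin effects of each pair of lines (lower rows), with 95% limma intervals; filled points had an adjusted p under 0.05. All 3 genes lie below 0 in AID-JARID2 (-1.71 to -3.97), Cdx2 and Cdx4 also in SUZ12-AID (-1.38 and -1.49), and the intervals of Cdx1 and Cdx2 in MTF2-AID span 0.

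The untreated lines already differed in their caudal genes, and not in the same order for each gene. Cdx2 was highest in MTF2-AID, 1.94 times its level in SUZ12-AID (log2 difference 0.95, adjusted p = 0.00142) and 3.59 times that in AID-JARID2 (adjusted p = 3.02e-06), and SUZ12-AID was 1.85 times AID-JARID2 (adjusted p = 0.000415). Cdx4 was highest in AID-JARID2, 5.90 times its level in SUZ12-AID (log2 difference 2.32, adjusted p = 0.000196) and 39.5 times that in MTF2-AID (adjusted p = 4.68e-06), and SUZ12-AID was 6.69 times MTF2-AID (adjusted p = 0.00607). Cdx1 was 4.10 times higher in AID-JARID2 than in SUZ12-AID (adjusted p = 0.000137) and 4.37 times higher than in MTF2-AID (adjusted p = 8.75e-05). SUZ12-AID and MTF2-AID were not called different in Cdx1 (log2 difference -0.05, 95% interval -0.42 to 0.33, adjusted p = 0.892). So 3 of 3 were called between AID-JARID2 and SUZ12-AID, where 27.6% of all genes were, 3 of 3 between AID-JARID2 and MTF2-AID (33.4%) and 2 of 3 between MTF2-AID and SUZ12-AID (8.65%). Untreated AID-JARID2 also had more primitive streak and caudal progenitor transcripts, with a list sum of 1910 and 1861 TPM against 351 and 379 in SUZ12-AID and 404 and 445 in MTF2-AID. Its pluripotent sum was 786 and 779 TPM, against 201 and 177 in SUZ12-AID and 220 and 234 in MTF2-AID. Most of it was Tdgf1 (382 ± 7.35 TPM) and Pou5f1 (326 ± 12.9 TPM), and Nanog was higher there too. Sox2 lay between the other lines, and Utf1, Zfp42, Dppa4 and Dppa5a had lower means there than in both. The paraxial mesoderm sum of untreated AID-JARID2 was 215 and 211 TPM, most of it Msgn1 (185 ± 0.555 TPM). It was 28.0 and 35.95 in SUZ12-AID and 15.9 and 23.6 in MTF2-AID. The heart muscle gene Tnnt2 was at 19.6 ± 3.38 TPM in untreated AID-JARID2, 134 ± 16.7 TPM in SUZ12-AID and 104 ± 14.3 TPM in MTF2-AID. Other contractile genes of the cardiac list did not share this order. Actc1 was at 46.3 ± 3.16, 19.9 ± 0.172 and 11.4 ± 5.04 TPM in the same lines, and Myl7 at 39.7 ± 3.38, 40.7 ± 7.48 and 44.1 ± 11.8 TPM. Line, clone and stage of differentiation cannot be told apart here.

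Summed over the family, caudal transcripts went from 229 ± 14.8 to 88.6 ± 18.1 TPM with auxin in SUZ12-AID, from 435 ± 8.26 to 429 ± 1.20 TPM in MTF2-AID and from 151 ± 5.19 to 10.4 ± 1.19 TPM in AID-JARID2. Cdx2 made up 97.6% ± 0.498 of the sum in untreated SUZ12-AID, 99.6% ± 0.0470 in MTF2-AID and 79.9% ± 1.97 in AID-JARID2. In AID-JARID2 the share of Cdx4 went from 16.2% ± 2.34 to 5.98% ± 2.77 with auxin and that of Cdx1 from 3.87% ± 0.372 to 10.5% ± 0.555, while Cdx2 stayed the largest at 83.6% ± 3.33. The family in AID-JARID2 thus held more Cdx4 than Cdx1 without auxin and more Cdx1 than Cdx4 with it, in both libraries of each group.

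Of the Hox genes, among which those of the trunk and tail are known targets of caudal factors, 39 were listed and 24 passed the filter. In AID-JARID2 14 of 24 fell and 0 rose (17.0% and 19.5% over all genes), with a median log2 difference of -1.20 beside 0.01 over all genes. Hoxb2, a hindbrain Hox gene, fell from 75.8 ± 0.153 to 7.44 ± 1.23 TPM (adjusted p = 1.39e-08), and the trunk gene Hoxd9 from 14.2 ± 1.94 to 0.435 ± 0.101 TPM (adjusted p = 4.38e-08). The summed level of the 39 genes, most of it Hoxb1 and Hoxb2, went from 219 and 216 TPM to 22.5 and 20.8 TPM. The early-acting Hoxb1, as abundant as Hoxb2 without auxin at 76.2 ± 1.22 TPM, fell to 9.45 ± 1.32 TPM (adjusted p = 2.2e-07). In this line Hoxb1 was named in addition, after its values were seen.

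In SUZ12-AID 5 Hox genes fell and 3 rose (4.05% and 15.1% over all genes), with a median of -0.11 beside 0.06 over all genes. Hoxb6 fell from 17.0 ± 1.52 to 3.69 ± 0.910 TPM (adjusted p = 0.000122) and Hoxb1 from 7.97 ± 0.629 to 1.94 ± 0.310 TPM (adjusted p = 0.000106), while Hoxb2, Hoxb8 and Hoxc8 made up the rest of those that fell. The 3 that rose were Hoxa5 (0.340 ± 0.130 to 2.55 ± 0.124 TPM), Hoxc13 (3.86 ± 0.0364 to 9.01 ± 0.998 TPM) and Hoxd10 (0.184 ± 0.0543 to 1.32 ± 0.303 TPM), named after their values were seen. In MTF2-AID limma called 0 of 24, with 4 higher and 4 lower at an unadjusted p under 0.05 and a median of 0.07. Called Hox genes only fell in AID-JARID2, where all 3 caudal genes fell, and went both ways in SUZ12-AID, where Cdx2 and Cdx4 fell. Markers of cell type moved in both lines too, and a link between the caudal genes and the Hox genes was not tested.

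**Figure D3:**
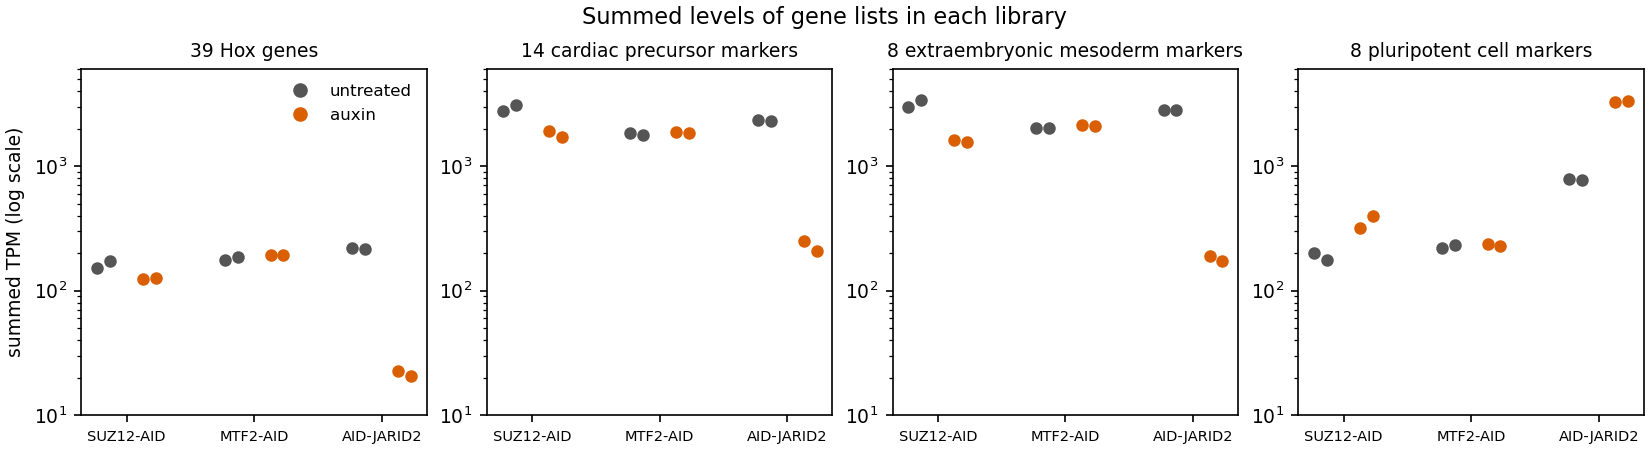
Summed TPM (log axis, 1 point a library) of 39 Hox genes, 14 cardiac precursor markers, 8 extraembryonic mesoderm markers and 8 pluripotent cell markers, by line and treatment. In AID-JARID2 with auxin the first 3 sums drop to 20.8 to 249 TPM while the pluripotent sum rises to 3269 and 3318 TPM. Hand1 counts in both mesoderm sums, and Hoxb1 and Hoxb2 make up most of the Hox sum of AID-JARID2.

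Among the signals known to act upstream of the caudal genes, every pathway list had calls in both directions in AID-JARID2 and in SUZ12-AID. In MTF2-AID, where limma called 7 genes higher and 3 lower in all, these lists could show no direction. Beside each list below stand the shares over all genes: 19.5% higher and 17.0% lower in AID-JARID2, 15.1% and 4.05% in SUZ12-AID. WNT ligands and regulators split in AID-JARID2, where 6 rose and 7 fell of 21 (median -0.12). The streak ligand Wnt8a rose from 10.8 ± 1.16 to 58.7 ± 1.26 TPM (adjusted p = 5.25e-06), and the antagonist Dkk1 fell from 37.8 ± 0.548 to 6.24 ± 1.23 TPM (adjusted p = 2.43e-07). Wnt3, the ligand that induces the streak, was at 79.9 ± 0.622 and 96.3 ± 2.52 TPM (adjusted p = 0.0746), and Wnt5a, a ligand of the tail bud, fell from 59.9 ± 3.90 to 13.6 ± 0.812 TPM (adjusted p = 9.7e-07). In SUZ12-AID 4 rose and 1 fell (median 0.03), with Dkk1 rising from 18.1 ± 0.484 to 36.9 ± 3.74 TPM (adjusted p = 0.000509), the opposite direction to AID-JARID2, and the antagonist Sfrp1 rising from 4.84 ± 0.762 to 9.94 ± 1.18 TPM (adjusted p = 0.00209). In MTF2-AID limma called 0 of 21, with 4 higher and 1 lower at an unadjusted p under 0.05. Wnt3 and Wnt5a here, and Fgf8, Bmp4 in SUZ12-AID, Aldh1a2, Cyp26a1, T, Pou5f1 and Nanog below, were chosen after their values were seen.

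FGF genes split evenly in AID-JARID2, with 8 up and 8 down of 17 (median 0.16). Fgf5, a ligand of the primed epiblast, rose from 4.00 ± 0.655 to 85.6 ± 3.30 TPM (adjusted p = 4.76e-08), and the receptor Fgfr3 fell from 25.1 ± 0.814 to 2.21 ± 0.385 TPM (adjusted p = 1.79e-07). Fgf8, the main FGF ligand of the streak, fell from 129.9 ± 7.34 to 91.0 ± 8.81 TPM (adjusted p = 0.0089). In SUZ12-AID 4 rose and 4 fell (median 0.19), with the ligand Fgf3 falling from 101 ± 4.28 to 53.1 ± 2.12 TPM (adjusted p = 0.000353) and the inhibitor Spry4 rising from 12.6 ± 0.238 to 24.4 ± 2.05 TPM (adjusted p = 0.000297). In MTF2-AID limma called 0 of 17 (1 higher and 3 lower at an unadjusted p under 0.05).

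BMP genes leaned downward in AID-JARID2, where 11 fell and 4 rose of 18 (median -0.75). The ligand Bmp4, which patterns posterior mesoderm, fell from 331 ± 9.12 to 25.1 ± 2.71 TPM (adjusted p = 6.34e-10), and its target Msx2 from 207 ± 1.17 to 21.1 ± 3.32 TPM (adjusted p = 5.7e-09). In SUZ12-AID 5 fell and 3 rose (median -0.04), with the ligand Bmp7 going from 79.4 ± 7.02 to 48.4 ± 3.31 TPM (adjusted p = 0.000438), Msx1 from 228 ± 0.0938 to 144 ± 11.9 TPM (adjusted p = 0.000398) and Bmp4 from 284 ± 8.65 to 180 ± 2.34 TPM (adjusted p = 0.000225). In MTF2-AID limma called 0 of 18 (3 higher and 0 lower at an unadjusted p under 0.05).

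Of 13 retinoic acid genes 5 rose and 1 fell in SUZ12-AID (median 0.28), where 78.8% of all calls were higher (53.1% under quantile normalization), and 2 rose and 4 fell in AID-JARID2 (median -0.11). Aldh1a2, the enzyme that makes retinoic acid in the trunk, rose from 1.27 ± 0.148 to 3.44 ± 0.0546 TPM in SUZ12-AID (adjusted p = 0.00314) and fell from 6.18 ± 0.435 to 1.32 ± 0.424 TPM in AID-JARID2 (adjusted p = 3.75e-05). Cyp26a1, the enzyme that degrades it in the tail, rose from 12.6 ± 0.00500 to 23.3 ± 1.37 TPM in SUZ12-AID (adjusted p = 6.83e-05) and was at 125 ± 3.38 and 127 ± 2.06 TPM in AID-JARID2 (adjusted p = 0.762). The binding protein Crabp1 rose from 90.4 ± 2.85 to 188 ± 22.7 TPM in SUZ12-AID (adjusted p = 0.000297) and fell from 76.0 ± 6.31 to 20.02 ± 2.99 TPM in AID-JARID2 (adjusted p = 9.66e-07). Crabp2 rose from 21.3 ± 4.07 to 41.1 ± 2.19 TPM in SUZ12-AID (adjusted p = 0.0133). Rxrg rose from 3.76 ± 0.793 to 15.5 ± 0.0265 TPM in AID-JARID2 (adjusted p = 1.6e-05). In MTF2-AID limma called 0 of 13 (3 higher and 0 lower at an unadjusted p under 0.05).

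Transcripts of the streak and of tail-end progenitors, in which caudal genes are normally active, split in AID-JARID2. There 5 rose and 7 fell of 18 (median -0.00), beside 19.5% and 17.0% of all genes. The list sum went from 1910 and 1861 to 1786 and 1722 TPM. T (Brachyury), the defining factor of the streak, rose from 302 ± 7.12 to 509 ± 11.9 TPM (adjusted p = 0.000234). Nkx1-2, a factor of caudal neuromesodermal progenitors, fell from 13.3 ± 0.140 to 3.39 ± 1.10 TPM (adjusted p = 6.71e-05), and Msgn1, a factor of presomitic mesoderm, from 185 ± 0.555 to 58.2 ± 0.0334 TPM (adjusted p = 0.00884). In SUZ12-AID 5 rose and 2 fell (median 0.10). There Eomes, a factor of early streak mesendoderm, rose from 9.36 ± 1.10 to 16.3 ± 3.73 TPM (adjusted p = 0.00405), Tbx6, a paraxial mesoderm factor, from 8.79 ± 0.0747 to 14.2 ± 0.491 TPM (adjusted p = 0.0105), and T from 33.4 ± 1.12 to 45.7 ± 7.73 TPM (adjusted p = 0.0138). In MTF2-AID limma called 0 of 18 (4 higher and 0 lower at an unadjusted p under 0.05, median 0.12), and T was at 30.4 ± 2.59 and 43.8 ± 0.258 TPM (adjusted p = 0.0957).

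**Figure D4:**
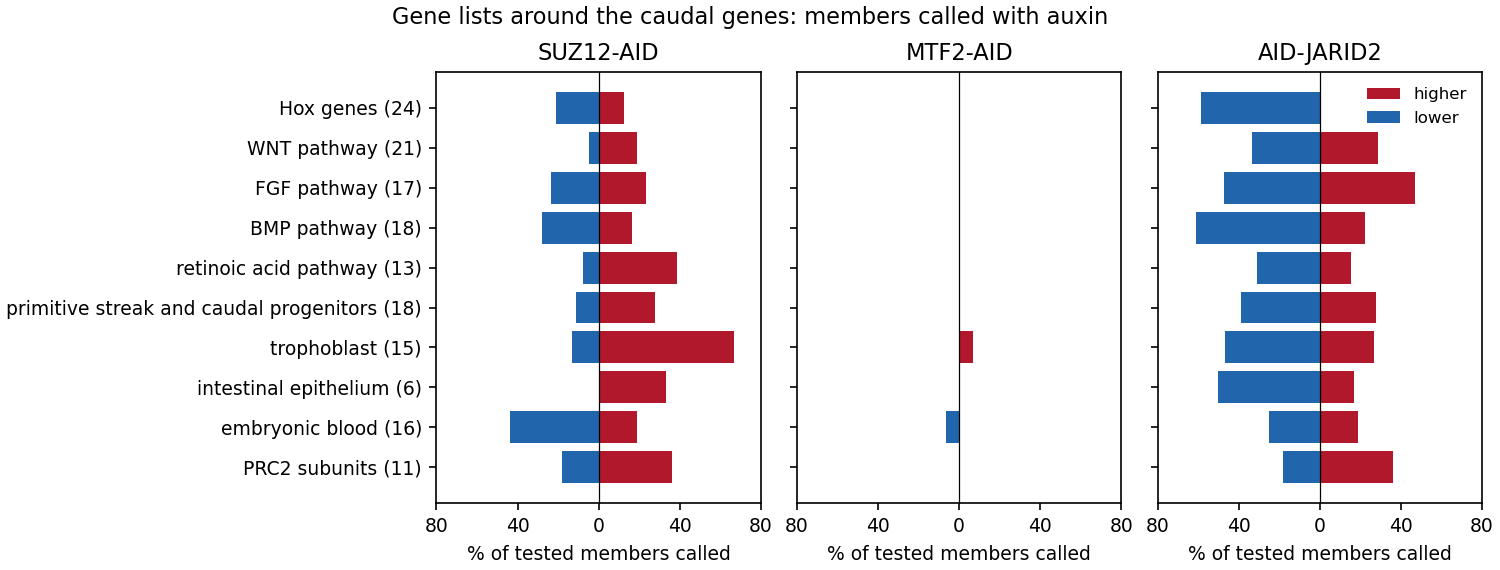
Percent of the tested members of 10 gene lists called higher (right) or lower (left) with auxin in each line, with the number tested in parentheses. Hox genes were called only lower in AID-JARID2 (14 of 24), trophoblast genes mostly higher in SUZ12-AID (10 of 15), and 2 genes in all were called in MTF2-AID. Over all genes 17.0% were called lower in AID-JARID2 and 15.1% higher in SUZ12-AID.

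Lists of tissues in which caudal genes act also had calls in both directions in AID-JARID2 and SUZ12-AID, apart from the intestinal genes in SUZ12-AID, called only higher. Of 15 tested trophoblast genes, 10 rose and 2 fell in SUZ12-AID (median 0.71), where Cdx2 fell, beside 15.1% and 4.05% of all genes. Krt7 rose there from 3.30 ± 1.35 to 34.4 ± 4.11 TPM (adjusted p = 4.41e-05) and the placental homeobox gene Esx1 from 0.4002 ± 0.0756 to 24.1 ± 2.48 TPM (adjusted p = 3.09e-05). The defining markers Elf5, Gcm1, Tpbpa and Prl3d1 did not pass the filter. In AID-JARID2 4 trophoblast genes rose and 7 fell (median 0.18), beside 19.5% and 17.0% of all genes. Hand1, which mesoderm also expresses, fell there from 1858 ± 36.9 to 98.3 ± 11.7 TPM (adjusted p = 6.34e-10) and Plac1 from 45.4 ± 1.64 to 3.34 ± 0.269 TPM (adjusted p = 1.53e-08). In MTF2-AID 1 rose, the keratin Krt8, from 657 ± 9.47 to 862 ± 3.19 TPM (adjusted p = 0.00783, median of the list 0.09).

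Of 21 intestinal genes only 6 passed the filter, and the defining epithelial genes Cdh17, Muc2, Sis and Fabp2 were not among them. The tight-junction gene Cldn3 rose from 21.5 ± 3.58 to 92.0 ± 9.09 TPM in SUZ12-AID (adjusted p = 0.000169) and from 1.90 ± 0.758 to 8.73 ± 0.375 TPM in AID-JARID2 (adjusted p = 6.93e-05). Lgr5, a stem cell receptor of the WNT pathway, rose from 1.16 ± 0.870 to 5.74 ± 1.34 TPM in SUZ12-AID (adjusted p = 0.00233) and fell from 5.37 ± 0.666 to 2.03 ± 0.216 TPM in AID-JARID2 (adjusted p = 0.0118). In all, 2 rose and 0 fell in SUZ12-AID, 1 rose and 3 fell in AID-JARID2, and limma called 0 in MTF2-AID (0 higher and 1 lower at an unadjusted p under 0.05), with medians of 0.40, -0.47 and -0.10. Over all genes 15.1% rose and 4.05% fell in SUZ12-AID, and 19.5% and 17.0% in AID-JARID2.

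Embryonic blood genes, which Cdx4 is known to promote, fell more often than they rose in SUZ12-AID, with 7 lower and 3 higher of 16 (median -0.12). Over all genes in this line 4.05% were lower and 15.1% higher. The embryonic globin Hbb-bh1 fell from 34.4 ± 9.56 to 0.606 ± 0.334 TPM (adjusted p = 0.000122), and Hba-x from 6.48 ± 0.0543 TPM to a level listed at 0 (adjusted p = 8.32e-05). In AID-JARID2 4 fell and 3 rose (median -0.25), beside 17.0% and 19.5% of all genes. Kdr, the VEGF receptor of blood and vessel progenitors, fell from 126.9 ± 0.0162 to 17.1 ± 2.92 TPM (adjusted p = 5.1e-07), and Myb, a factor of definitive blood progenitors, rose from 0.770 ± 0.281 to 8.79 ± 0.604 TPM (adjusted p = 2.51e-06). In MTF2-AID, where no caudal gene was called, the integrin Itga2b fell from 17.9 ± 0.324 to 8.60 ± 0.795 TPM (adjusted p = 0.0134). There 10 of 16 were lower and 0 higher at an unadjusted p under 0.05 (median -0.53), beside 823 and 665 of all 15661 genes.

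Of the other ParaHox genes, the cluster family to which caudal genes belong, Pdx1 was tested and not called in any line, and Gsx1 and Gsx2 did not pass the filter. Among 11 tested PRC2 subunits 4 rose and 2 fell in SUZ12-AID (median 0.23) and likewise in AID-JARID2 (median -0.01), and limma called 0 in MTF2-AID (1 higher and 0 lower at an unadjusted p under 0.05, median -0.02). Over all genes 15.1% rose and 4.05% fell in SUZ12-AID, and 19.5% and 17.0% in AID-JARID2. The tagged genes do not check the labels through their RNA, since the degron acts on the protein. Suz12 was at 119.9 ± 9.62 and 108 ± 2.07 TPM in SUZ12-AID (adjusted p = 0.179) and Mtf2 at 22.1 ± 0.451 and 25.3 ± 0.910 TPM in MTF2-AID (adjusted p = 0.626). Jarid2 rose from 44.4 ± 1.30 to 109 ± 6.85 TPM in AID-JARID2 (adjusted p = 2.17e-05). Phf19, an accessory subunit related to MTF2, rose from 2.07 ± 0.251 to 6.39 ± 1.37 TPM in SUZ12-AID (adjusted p = 0.00123), and Phf1, another relative, fell from 20.4 ± 0.940 to 12.4 ± 0.107 TPM in AID-JARID2 (adjusted p = 0.000105). Ezh1 rose from 28.0 ± 2.49 to 39.5 ± 5.96 TPM in SUZ12-AID (adjusted p = 0.035).

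The labelled cell type was checked by its markers. Hand1, Gata4, Gata6, Isl1 and Tbx20 were present in all untreated groups, while Tbx5 stayed under 1 TPM in every group mean and Nkx2-5 was low without auxin, at 2.25 ± 0.740 TPM in SUZ12-AID, 5.78 ± 1.02 TPM in MTF2-AID and 1.56 ± 0.126 TPM in AID-JARID2. In AID-JARID2 with auxin Pou5f1, which encodes OCT4, rose from 326 ± 12.9 to 1600 ± 0.899 TPM (adjusted p = 1.43e-07) and Nanog from 33.7 ± 1.18 to 79.2 ± 3.69 TPM (adjusted p = 0.00016). Over all genes in this line 17.0% were lower and 19.5% higher. Extraembryonic mesoderm markers, some of which cardiac mesoderm shares, fell in 6 of 8 cases there. Their sum, most of it Hand1, was 2847 and 2826 TPM before and 191 and 174 TPM after. Neural markers rose in 3 of 4 tested cases (sum 79.6 and 77.7 to 353 and 372 TPM). Those that rose were Nes, Tubb3 and Otx2, which made up most of the sum. Zic1 was not called (0.0932 and 0.114 TPM), and the defining genes Pax6, Sox1 and Neurog2 did not pass the filter. Paraxial mesoderm markers rose in 1 and fell in 2 of 4 (215 and 211 to 82.2 and 78.4 TPM). Of 4 endoderm markers 1 rose and 1 fell (102 and 100.2 to 19.4 and 18.6 TPM), with Afp listed at 0. Cxcr4, which mesoderm also expresses, made up most of the endoderm sum and fell from 93.9 ± 0.818 to 9.73 ± 0.594 TPM (adjusted p = 2.76e-07), and Foxa2 rose from a level listed at 0 to 1.91 ± 0.483 TPM (adjusted p = 0.000299). In SUZ12-AID the same 3 lists had 4 of 4, 2 of 4 and 3 of 4 members higher and 0 lower, beside 15.1% and 4.05% of all genes. The share of higher genes among all calls there was 78.8%, and 53.1% under quantile normalization. In MTF2-AID limma called 0 of 12, with 0 higher and 1 lower at an unadjusted p under 0.05.

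The genes next to the caudal genes went both ways. Of the 18 nearest genes (3 on each side, microRNAs, pseudogenes and placeholder symbols left out) 13 were tested, and with auxin 4 rose and 4 fell in AID-JARID2 (19.5% and 17.0% over all genes), 1 rose and 1 fell in SUZ12-AID (15.1% and 4.05%), and limma called 0 in MTF2-AID (0 higher and 1 lower at an unadjusted p under 0.05). The largest fall among them was that of Pdgfrb, the platelet-derived growth factor receptor of mesenchymal cells, 9.0 kb from Cdx1. It fell from 42.2 ± 0.408 to 3.31 ± 0.313 TPM in AID-JARID2 (log2 difference -3.33, adjusted p = 1.03e-08), and from 83.3 ± 13.6 to 45.0 ± 1.13 TPM in SUZ12-AID (log2 difference -0.86, adjusted p = 0.000431), where Cdx1 was not called. Slc6a7, 4.6 kb from Cdx1 on its other side, did not pass the filter, and the next gene there, Camk2a, was not called in any line.

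Around Cdx2, Urad lies 7.7 kb away and went from 2.16 TPM to a level listed at 0 in AID-JARID2 (log2 difference -1.63, adjusted p = 0.00428). In SUZ12-AID it was at 1.97 and 0.559 TPM (-1.03, adjusted p = 0.0654). Pdx1, the ParaHox gene on the other side at 25.0 kb, was low in AID-JARID2, with 0.617 and 0.128 TPM (-0.50, adjusted p = 0.0882). Around Cdx4, Chic1 at 25.9 kb was not called in AID-JARID2 (8.58 and 6.00 TPM, -0.46, adjusted p = 0.0537), and Nap1l2 at 134.8 kb rose (3.204 to 7.70 TPM, 1.04, adjusted p = 0.000296). On this scale a gene cannot fall by more than its own starting value, so the low neighbours could not reach the differences of Cdx2 and Cdx4, and Urad fell by nearly all it could.

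**Figure D5:**
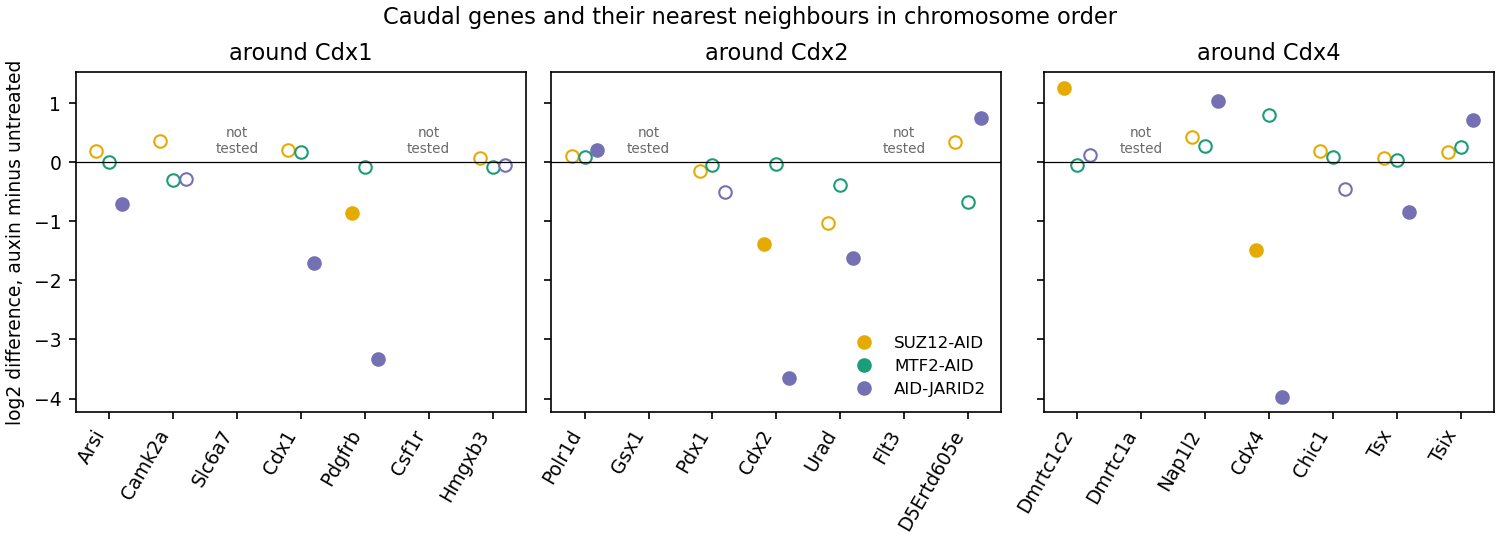
Log2 difference, auxin minus untreated on the log2(TPM + 1) scale, of each caudal gene and its 3 nearest genes on each side, in chromosome order (distances not to scale); colours are lines and filled points had an adjusted p under 0.05. In AID-JARID2 Pdgfrb lies at -3.33 and Cdx1 at -1.71; low genes such as Urad (-1.63, listed at 0 with auxin) cannot fall further on this scale.

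The caudal genes did not share 1 pattern over the 12 libraries. Pearson r of log2(TPM + 1) was 0.88 between Cdx1 and Cdx4, 0.15 between Cdx2 and Cdx4 and 0.11 between Cdx1 and Cdx2. Without the AID-JARID2 libraries the 8 others gave -0.23, 0.07 and -0.45, so the high value between Cdx1 and Cdx4 rests on that line. The libraries share 3 lines and 2 treatments, and r is given as a description only.

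Among 10841 other genes with a mean of at least 5 TPM, those most like Cdx2 were St6galnac6 (r = 0.988), Col26a1 (0.988), Tmem119 (0.987), Shc2 (0.984) and Cd248 (0.983), and without AID-JARID2 they kept r of 0.92 to 0.98. Most like Cdx4 were Mrfap1 (0.975), Fgfr1 (0.955), Suclg1 (0.943), Tspan3 (0.940) and Hmgb2 (0.939), with r of 0.75 to 0.91 without that line. Fgfr1 encodes the FGF receptor of the streak. Most like Cdx1, among 10842 genes, were Smim10l2a (0.973), Zfp703 (0.970), Glis1 (0.965), Abcd4 (0.958) and Efemp2 (0.958). Their r dropped to between -0.05 and 0.54 without AID-JARID2, where Cdx1 hardly varied.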

How the data were processed

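The values deposited by the authors are TPM, in 1 table with 12 libraries, 2 for each of 3 lines with and without auxin. Per the submitters' processing notes, reads were aligned with STAR 2.6.1d to mm10; the program that counted reads, and its annotation, were not given in the sources used here. Columns were matched to groups by name. Whole reads were recovered from the steps of the TPM values (100% of values within 0.001 reads of a whole number).

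The 15661 genes that reached 1 TPM in 2 or more libraries were fitted on log2(TPM + 1) with limma 3.58.1 in R 4.3.3, with 1 term per group, all libraries sharing 1 estimate of the spread (eBayes with a trend; degrees of freedom 6 residual, 3.9 prior). Two-sided p-values were adjusted over all genes, with a threshold of 0.05. Gene lists were counted, not tested. The fit was tested on simulated data. Alternatives were the pseudocount, the filter, the scaling, variance weights, fewer libraries, recovered reads, replicate blocks and leaving out each library.

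The members and lists were chosen with earlier results of these data known. Named genes were the members, the tagged genes, 3 neighbours on each side, the 5 most alike genes for each member, up to 2 called genes per list and line with at least 5 TPM in the higher group, and defining markers, with additions named as such. Positions come from GENCODE vM21 on mm10 and sequences from RefSeq.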

Additional observations from a re-analysis of the deposited data

Results flagged for a closer look

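The auxin effect differed between lines by an interaction term in limma for 8 of the 9 tests of a caudal gene and a pair of lines. The log2 differences between effects, AID-JARID2 minus SUZ12-AID, were -1.92 for Cdx1, -2.28 for Cdx2 and -2.47 for Cdx4. AID-JARID2 minus MTF2-AID gave -1.89 for Cdx1, -3.63 for Cdx2 and -4.76 for Cdx4. MTF2-AID minus SUZ12-AID gave 1.35 for Cdx2 and 2.29 for Cdx4. The untreated lines differed in these genes too, and each subunit was tagged in 1 line. For Cdx1 and Cdx4 the untreated levels limited how far log2(TPM + 1) could fall, which fixed part of these differences.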

How the results depend on the processing

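All 21 called differences of the caudal genes, out of 27, kept their direction under each of 24 alternatives (23 between untreated lines), and 19 of them stayed called in each. The exceptions in SUZ12-AID were Cdx2 with the libraries of that line only (-1.38, adjusted p = 0.0503) and Cdx4 with those libraries (-1.49, 0.0564) or a variance weight per line (-1.49, 0.0591). Uncalled Cdx1 values changed sign: in SUZ12-AID to -0.15 with quantile normalization, for the MTF2-AID minus SUZ12-AID effect to 0.02 with median-of-ratios scaling, 0.40 with quantile normalization and -0.19 to 0.14 with 1 library left out, and between those untreated lines to -0.21 to 0.12. The cause was not tested. The pseudocount moved the low genes by construction. Pseudocounts of 0.1 and 5 gave Cdx4 -2.21 and -0.65 in SUZ12-AID, -5.14 and -2.38 in AID-JARID2, and 3.58 and 0.94 for the MTF2-AID minus SUZ12-AID effect. A pseudocount of 5 gave -2.67 for the AID-JARID2 minus MTF2-AID effect on Cdx4, and for Cdx1 -0.83 in AID-JARID2 and -0.91 and -0.90 for its effect minus those of SUZ12-AID and MTF2-AID. Between untreated lines Cdx4 became -2.53 and -0.69 (MTF2-AID minus SUZ12-AID) and, with 5, 2.38 (AID-JARID2 minus MTF2-AID), and Cdx1 with 5 became 0.75 and 0.77 (AID-JARID2 minus SUZ12-AID and MTF2-AID). Each of these stayed called. Counts of called genes moved more than calls of caudal genes. In SUZ12-AID 2997 became 1194 with variance weights, 156 with that line only and 1375 to 3429 with 1 library left out, the lowest without auxin replicate 2. In MTF2-AID 10 became 6 and 30 with the pseudocounts, 21 without a filter, 17 with quantile normalization, 164 with weights, 0 with that line only, 85 on recovered reads, 4 with a replicate block nested in line and 5 to 38 with 1 library left out. For the MTF2-AID minus SUZ12-AID effect 1740 became 1103 with weights, 1028 with those lines only and 936 to 2462 with 1 library left out, and between these lines untreated 1355 became 845, 710 and 522 to 4089, the highest without untreated SUZ12-AID replicate 2. Untreated AID-JARID2 gave 2355 to 5632 against SUZ12-AID (4317) and 3399 to 6113 against MTF2-AID (5232), the lowest without its replicate 2.

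Deviations of same-numbered libraries correlated at 0.096 in SUZ12-AID, -0.039 in MTF2-AID and 0.008 in AID-JARID2. These low values show no sign of pairing by number, but they cannot exclude a shared culture. With a replicate block on the shared number Cdx2 stayed at -1.38 in SUZ12-AID (adjusted p = 8.64e-05) and -3.66 in AID-JARID2, and no call of a caudal gene changed. Of 1863 further values of named genes 99 lost their call and 0 reversed, and 1440 of 1584 counts within lists stayed within 1.5 times. Depth limits Cdx1 and Cdx4, with 4 to 58 reads in most libraries.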
